A study of Homo sapiens with 12 samples.

Results

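Clusters on 5′ splice sites are stretches of RNA at the start of introns at which the RNA-binding protein QKI (Quaking) was mapped by enhanced crosslinking and immunoprecipitation (eCLIP). They were chosen from the annotated cluster lists of endogenous QKI, off the mitochondrial chromosome, as the clusters whose most frequent annotated region was a coding or noncoding 5′ splice site. The rule found 4664 of 384230 clusters in endogenous library 1 and 3297 of 231742 in library 2, of which 4292 and 3078 were on coding transcripts. Clusters of the tagged proteins entered where they overlapped these on the same strand by at least 1 base.

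The 5′ splice site is the junction where an exon ends and an intron begins. It is first paired by the U1 small nuclear RNA and then handed over to the U6 small nuclear RNA, which arrives as part of the tri-snRNP, before the intron is cut. QKI is a KH-domain protein of the STAR family that binds ACUAA-type elements in introns and regulates alternative splicing, often from positions close to the exon it affects.

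All libraries carry the cell line label HEK293xT, and their protocol text calls the cells HEK293T, an established human embryonic kidney cell line. The mutant group carried a transfected plasmid for myc-QKI-5 bearing K120A and R124A (residues counted along QKI), and the wild type group one for unchanged myc-QKI-5. The endogenous group was not transfected. Transfected cells received 10 µg of plasmid and grew for 72 h, so the tagged proteins were made transiently beside the cells' own QKI. All cells were crosslinked at 254 nm with 400 mJ/cm2, and the tagged proteins were pulled down with anti-MYC sc-40 and endogenous QKI with anti-QKI A300-183A. Antibody and transfection therefore change together between wild type and endogenous and cannot be told apart. Each of the 3 groups had 2 immunoprecipitation libraries, and the labels do not say whether these came from separate cultures, so p-values measure the spread between libraries, which may be technical. The design note of the series speaks of human embryonic stem cells in cardiomyocyte differentiation, which conflicts with the sample labels; the labels were followed.

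Each cluster carried the authors' log2 fold over its size-matched input and a −log10 p, capped at 400. A cluster was called enriched when both were at least 3. The tagged libraries listed 231774 and 272604 clusters in the mutant libraries, against 226852 and 273155 in those of wild type, and every one had a fold above input, while the endogenous lists also kept 155227 and 33328 clusters at or below input. A 5′ splice site that a tagged library does not list was thus either without a cluster or not above input there. Read depth is unknown. The amounts of mutant and wild type protein were not analysed here.

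Most clusters on 5′ splice sites were weak. Their median log2 fold was 0.26 in endogenous library 1 and 1.15 in library 2, and 62.4% and 31.4% of them had a −log10 p of 0. Enriched clusters numbered 261 in library 1 (5.60%, with a 95% exact interval of 4.95 to 6.29) and 192 in library 2 (5.82%, 5.05 to 6.68). Over annotated clusters of all classes the enriched share was 4.21% and 5.38%. The share was 1.33 and 1.08 times that of the clusters outside 5′ splice sites (mean 1.21 ± 0.177, SD, n = 2), and in library 2 the interval of the 5′ splice site share included the 5.37% of those other clusters. The same ratio was 1.71 and 1.35 for clusters on 3′ splice sites, 1.45 and 1.34 for proximal introns, and 0.149 and 0.102 for coding exons. Clusters on 5′ splice sites were thus enriched more often than exonic clusters in both libraries, and less often than those on 3′ splice sites, with no test of these class differences. The intervals of coding and noncoding 5′ splice sites overlapped, at 5.68% (5.01 to 6.42) against 4.57% (2.68 to 7.22) in library 1 and 5.82% (5.01 to 6.70) against 5.94% (3.20 to 9.94) in library 2.

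The rule asks for the leading region class, not for a whole cluster inside the splice site window. Of the clusters, 43.7% and 44.3% lay wholly in that class. Clusters just inside the rule had a median log2 fold of 0.84 (640 clusters) and 1.56 (398), and those just outside had 0.96 (619) and 1.15 (444). Of the clusters on 5′ splice sites, 1488 (31.9%) of library 1 and 1472 (44.6%) of library 2 overlapped any cluster of the other library, and 1209 (25.9%) and 1206 (36.6%) overlapped one that also passed the rule. Over clusters of all classes, 29.9% of library 1 and 48.1% of library 2 overlapped a cluster of the other library.

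Overlapping clusters of both libraries were joined into 6734 loci, of which 6588 carried a name, in 4456 named genes. At 196 of the 6734 loci, in 185 named genes, the endogenous clusters were enriched in both libraries, beside 7974 of 493642 loci of all classes. On a peak of the authors' endogenous reproducible list, which pools the pair of libraries, lay 245 loci. The loci enriched in both libraries had a median length of 115.5 bases, and the other 6538 had 54 bases.

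The loci described next were among those with the highest mean fold in endogenous QKI, a choice that favours endogenous over tagged values there. MOV10, an RNA helicase gene, was listed in neither mutant library (hg19 chromosome 1, 113229692 to 113229901, plus strand). Its log2 fold was 6.82 and 5.82 in wild type, against 8.49 and 6.83 for endogenous QKI. The wild type values reached up to the lower endogenous value without passing it.

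Counting the first intron base as 1 and the last exon base as 0, the MOV10 locus ran from −37 to 172 and so covered the exon end, the splice site and the intron behind it. FAM120A, which encodes an RNA-binding protein, had its locus wholly in the intron, from 49 to 123 (chromosome 9, 96313023 to 96313097, plus strand). No mutant library listed it, and its log2 fold was 5.48 and 4.56 in wild type, against 8.04 and 6.97 for endogenous QKI. Its relative FAM120C had 2.87 and 3.19 in wild type, against 7.53 and 5.89 for endogenous QKI, also with no mutant cluster. At both genes every wild type value was below every endogenous value.

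CANT1, the gene of a calcium-activated nucleotidase, overlapped between wild type and endogenous. It had a log2 fold of 6.49 and 6.95 in wild type, against 7.83 and 6.85 for endogenous QKI, and the mutant libraries did not list it (chromosome 17, 77001323 to 77001516, minus strand). EMC10, which encodes a subunit of the endoplasmic reticulum membrane complex, had 6.10 and 5.07 in wild type, against 5.22 and 7.02 for endogenous QKI. NDEL1, a dynein regulator gene, had 2.41 in mutant library 1, at a −log10 p of 0.83, then 4.34 and 6.13 in wild type, against 5.44 and 6.75 for endogenous QKI. At EMC10 and NDEL1 the wild type and endogenous values overlapped. Both loci lay close behind the junction, from 8 to 98 at EMC10 and from 33 to 106 at NDEL1.

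The remaining leading endogenous loci were in ALDH18A1, a proline synthesis gene, NUP107, a nuclear pore gene, MLLT4 (now AFDN), a cell junction gene, RIF1, a DNA repair and replication timing gene, and the noncoding transcript lnc-RAB11FIP4-7. NUP107 had 3.66 and 5.87 in wild type, against 6.46 and 6.87 for endogenous QKI. MLLT4 had 3.50 and 2.69 in wild type, against 7.11 and 5.66 for endogenous QKI. The wild type values were below both endogenous values at these genes. RIF1 had 2.90 and 2.96 in wild type, against 6.13 and 6.01 for endogenous QKI. ALDH18A1 alone among these 5 loci had a mutant cluster, at 0.78 in mutant library 1, beside 2.73 and 3.39 in wild type, against 7.54 and 5.83 for endogenous QKI.

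Some of the loci with the highest mean fold in wild type stood higher there than in endogenous. PTCD3, a mitochondrial ribosome gene, had 6.24 and 4.99 in wild type, against 3.70 and 4.37 for endogenous QKI. COG5, a Golgi transport gene, had 5.32 and 5.57 in wild type, against 4.13 and 2.81 for endogenous QKI. ZFAND1, a zinc finger gene, had 4.98 and 5.48 in wild type, against 3.87 and 4.67 for endogenous QKI. The 2 groups did not overlap at these 3 loci, and no mutant library listed any of them. They were picked for a high wild type fold, which favours wild type over endogenous and mutant there. In the limma test described below, 0 of 578 regions on 5′ splice sites were higher in wild type than in endogenous, beside 0.537% of all regions. Under some other settings of that test COG5 was called higher.

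**Figure D1:**
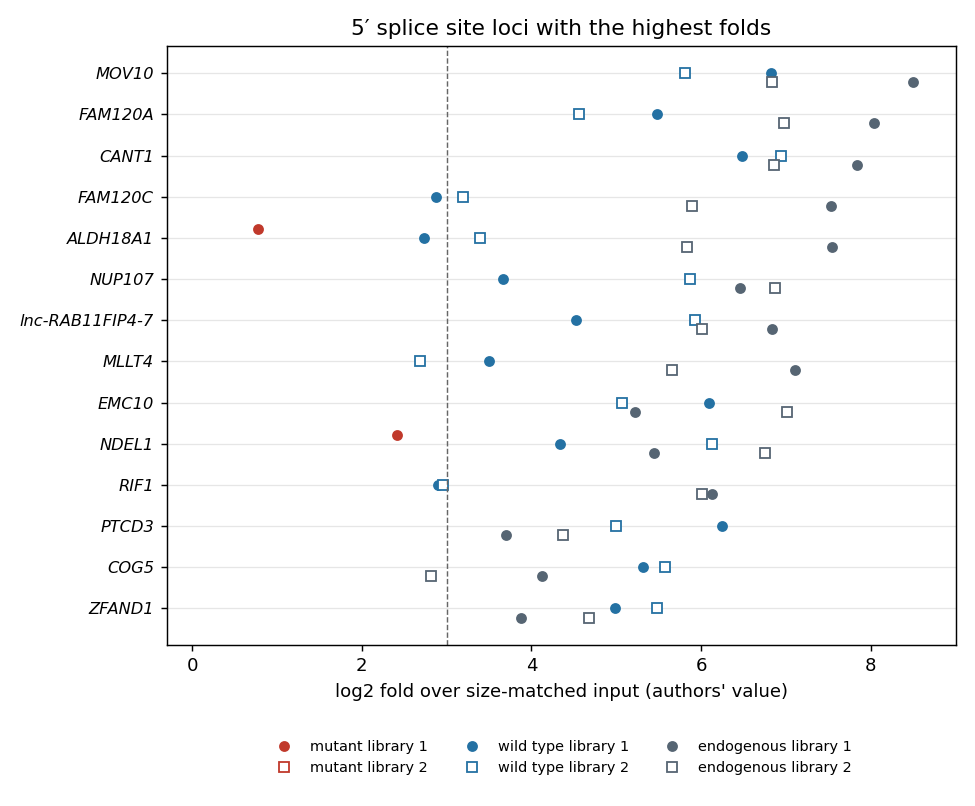
Log2 fold over size-matched input (x axis) at the 5′ splice site loci with the highest means among those enriched in both endogenous or both wild type libraries, 1 locus per gene (y axis; 1 locus is not shown). Filled circles are library 1 and open squares library 2 of each group, a missing symbol means no listed cluster, and the dashed line marks the log2 fold of 3 used for calls. Only ALDH18A1 and NDEL1 have a mutant symbol, and neither reaches the line.

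The first comparison asked what became of the tagged protein at 5′ splice sites when the KH-domain residues were substituted. At the 245 loci on endogenous reproducible peaks, the mutant was listed at 16.3% and 9.39% of loci, against 82.4% and 79.2% in wild type. No locus was enriched in either mutant library, with an exact upper bound of 1.49%. Wild type was enriched at 71 loci (29.0%, 23.4 to 35.1) and 52 loci (21.2%, 16.3 to 26.9). Over all 493642 endogenous loci of all classes the enriched share was 0.00871% and 0.0488% in the mutant libraries, against 0.881% and 0.922% in those of wild type. Those loci were not held to reproducible peaks, so their shares cannot be set against the 245 loci. The matching wild type shares over all 5′ splice site loci were 1.47% and 1.34%.

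Where a cluster was listed at these 245 loci, its median log2 fold was 0.86 and 0.78 in the mutant libraries, against 2.67 and 2.35 in those of wild type, and it was 4.09 and 4.21 in endogenous. The mean difference of mutant less wild type was −1.69 in the median log2 fold, −68.0 percentage points in listed loci and −25.1 percentage points in enriched loci. Both mutant libraries lay below both wild type libraries in each measure (two-sided exact permutation p = 0.333, which is the lowest value possible with 2 libraries against 2). The same kind of loci in proximal introns gave 0% and 0% enriched in the mutant libraries, against 26.1% and 24.2% in those of wild type, which is near the values at 5′ splice sites. The locus choice used the endogenous libraries, not the tagged ones.

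**Figure D2:**
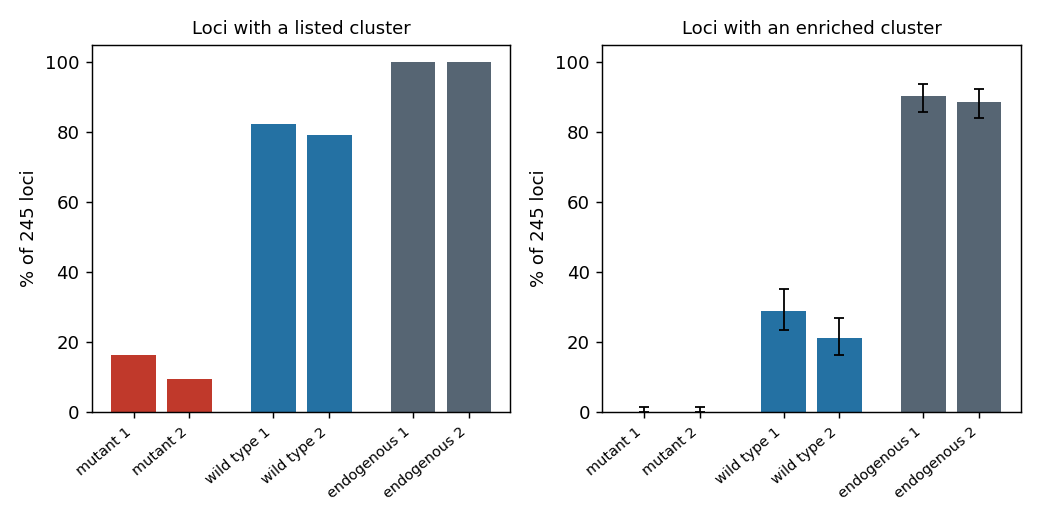
Share of the 245 5′ splice site loci on endogenous reproducible peaks with a listed cluster (left) and with an enriched cluster (right), for each library; bars are percentages and whiskers in the right panel are 95% exact binomial intervals, which cover counting error only. Both mutant bars are 0 in the right panel, and the wild type bars stand at 29.0% and 21.2%; endogenous bars are high because the loci were chosen on endogenous peaks.

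Over all 6734 loci the gap in percentage points was smaller. The mutant was listed at 13.5% and 17.0% of loci and wild type at 21.9% and 22.3%. The mutant was enriched at 0 and 24 loci (0% and 0.356%), against 99 and 90 loci for wild type (1.47% and 1.34%; two-sided exact permutation p = 0.333). The median log2 fold of listed loci did not separate the groups, at 0.78 and 1.30 in the mutant libraries, against 1.41 and 1.25 in those of wild type (difference −0.29, exact permutation p = 0.667), and leaving out mutant library 1 gave −0.03, leaving out mutant library 2 −0.55. Enriched clusters in both wild type libraries were found at 53 loci, and of these the mutant libraries listed 5 and 2. These loci were chosen on wild type, which favours wild type in this count, and the same count over loci of all classes was not made.

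Over all loci, the listed share of the mutant was higher at 5′ splice site loci than at 3′ splice site and proximal intron loci. At 3′ splice site loci it was listed at 6.58% and 7.81%, and in proximal introns at 9.66% and 10.9%, where wild type was listed at 23.6% and 22.5%, and at 21.6% and 22.6%. The share at 5′ splice sites less that at 3′ splice sites was 6.89 and 9.24 percentage points in the mutant libraries, against −1.63 and −0.138 in those of wild type, a difference of 8.95 with an exact permutation p of 0.333. On endogenous reproducible peaks the classes overlapped in the mutant libraries. The mutant was listed there at 16.3% and 9.39% of 5′ and 9.84% and 6.15% of 3′ splice site loci, and at 9.94% and 9.57% of proximal intron loci.

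All 24 enriched mutant loci came from mutant library 2, which was enriched at 0.356% of 5′ splice site loci and 0.0488% of loci of all classes. They were in 18 named genes, had a median length of 37.5 bases, and 15 of them had a −log10 p under 5. Mutant library 1 listed 15 of the 24, at a log2 fold of at most 1.85, and no wild type or endogenous library was enriched at any of them. Endogenous library 1 listed 17, of which 15 were below input, and endogenous library 2 listed 8, of which 3 were below input (median log2 fold −1.06 and 0.42). USP33, a deubiquitinase gene, held the highest fold, with 1.85 and 5.06 for the mutant, 1.41 and 1.44 for wild type and −1.74 in endogenous library 1. Its locus was only 2 bases long, and the endogenous −log10 p there was 0. SLC38A10, a transporter gene, had 4.28 in mutant library 2, RPS6KB2, a ribosomal protein S6 kinase gene, had 4.19, and RUNDC1 and TAF6L had 4.11 each, all without a cluster in the other tagged libraries. EIF4G1, a translation initiation scaffold gene, had 3.43 there and 1.15 and 1.61 in wild type, FASTK had 3.56 and ZNF425 had 3.11. Several of these loci were also very short, with 7 bases at RUNDC1, 10 at RPS6KB2 and 11 at EIF4G1. The others had 21 at FASTK, 34 at SLC38A10, 52 at TAF6L and 61 at ZNF425.

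The position of a cluster relative to the splice site was read from the annotation of the endogenous clusters. A cluster that crossed the exon end gave the junction, and one that crossed the far edge of the 100-base window gave it from the intron side. The readings agreed at 284 of 287 junctions seen from both sides (99.0%), and 234 of 259 clusters that spanned the window (90.3%) held exactly 100 window bases. Clusters of all libraries were placed around 7340 junctions by their midpoint, with distance 0 at the first intron base. Since junctions came from endogenous clusters that crossed an edge, endogenous counts near 0 and near 100 bases are partly set by that choice. Tagged clusters that share endogenous sites can follow the same choice, and their values by side of the junction are given below. Of the junctions, 2511 were seen from the exon side and 4829 from the intron side alone.

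By midpoint, wild type clusters in the intron were enriched more often than those at the junction. A long cluster with its midpoint in the intron can still cross the junction, as at MOV10. With midpoints 50 to 1 bases before the junction, 0.741% and 0% of wild type clusters were enriched, and 0 to 24 bases behind it 1.69% and 1.68%. The share was 3.86% and 4.35% at 25 to 49 bases, 7.83% and 7.28% at 50 to 74 bases, 9.22% and 7.88% at 75 to 99 bases, and 7.81% and 9.32% at 100 to 124 bases. Mutant library 1 had no enriched cluster in any intron bin, and mutant library 2 had between 0.524% and 2.38% there.

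**Figure D3:**
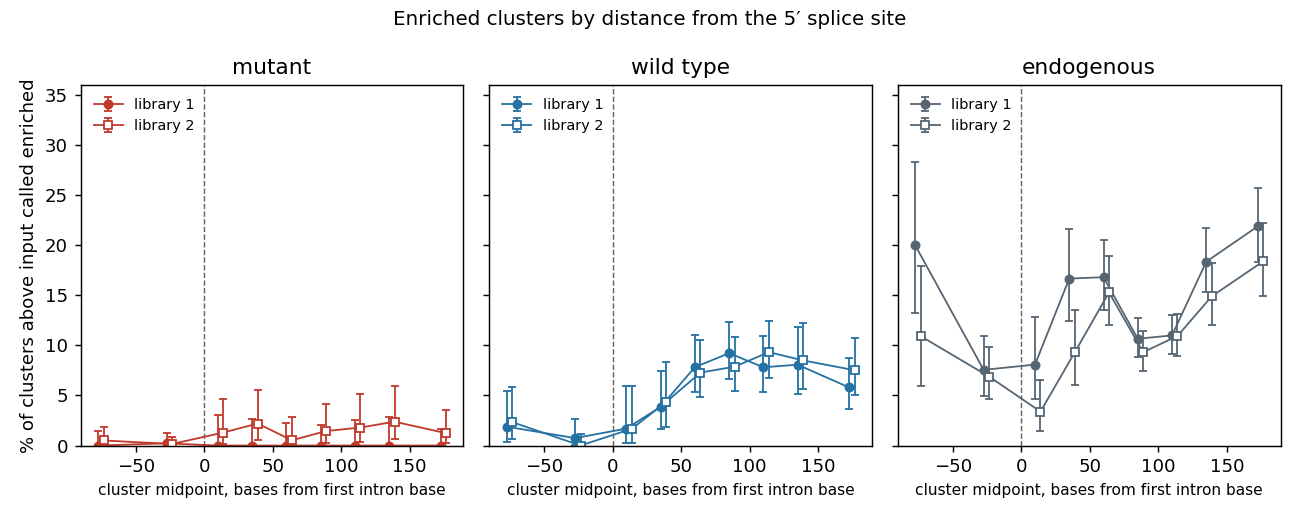
Share of clusters above input that were enriched (y axis, %) by the distance of the cluster midpoint from the first intron base (x axis, bases, negative in the exon), for the mutant, wild type and endogenous libraries; circles are library 1, squares library 2, whiskers 95% exact binomial intervals. Wild type is at 1.69% and 1.68% just behind the junction and between 7.28% and 9.32% at 50 to 124 bases, and mutant library 1 stays at 0% across the intron. Endogenous libraries lie at 20% and 10.9% at −100 to −51 bases and between 3.39% and 8.08% from −50 to 24 bases. They reach 21.9% and 18.4% at 150 to 199 bases.

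In a junction zone (midpoints −50 to 24) against an intron zone (50 to 149), the enriched share on the junction was 0.175% and 0.371% for the mutant and 1.03% and 0.452% for wild type, against 7.75% and 5.60% for endogenous QKI. In the intron zone mutant libraries had 0% and 1.50% and those of wild type 8.28% and 8.27%, against 13.2% and 11.9% for endogenous QKI. These shares are over clusters above input, which are the only ones in the tagged lists. The gain of intron over junction was −0.175 and 1.13 percentage points in the mutant libraries, against 7.25 and 7.82 in those of wild type, a difference of −7.06 (exact permutation p = 0.333). Cluster length moved with the zone, with medians of 67 and 69 bases in the wild type intron zone and 56.5 and 55 at the junction. Among clusters of 50 to 79 bases, wild type shares were 2.87% and 4.55% in the intron and 2.96% and 0.752% at the junction, so the intron share was not higher in library 1. Among clusters of 80 to 119 bases they were 17.6% and 15.2% in the intron and 0% and 0% at the junction (67 and 79 clusters). The part of length in the result was not tested.

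The mutant also differed in where its clusters above input lay. In the mutant, 48.2% and 52.4% of clusters in both zones fell on the junction (573 of 1190 and 808 of 1541), against 20.7% and 22.6% in wild type (388 of 1874 and 442 of 1953). Endogenous clusters above input had 14.5% and 18.9% there. The mutant mean of 50.3 ± 3.03% exceeded the wild type mean of 21.7 ± 1.36% by 28.6 percentage points (SD, n = 2 each, exact permutation p = 0.333). The size depended on the junctions used, in a split chosen after seeing the data. Around those seen from the exon side the shares were 60.6% and 65.1% for the mutant and 51.0% and 51.9% for wild type, a difference of 11.4 points, and around those seen from the intron side alone 39.3% and 43.2% for the mutant and 8.83% and 10.8% for wild type, a difference of 31.4 points. In number, the intron zone held 617 and 733 clusters in the mutant libraries and 1486 and 1511 in those of wild type, while the mutant had more at the junction.

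**Figure D4:**
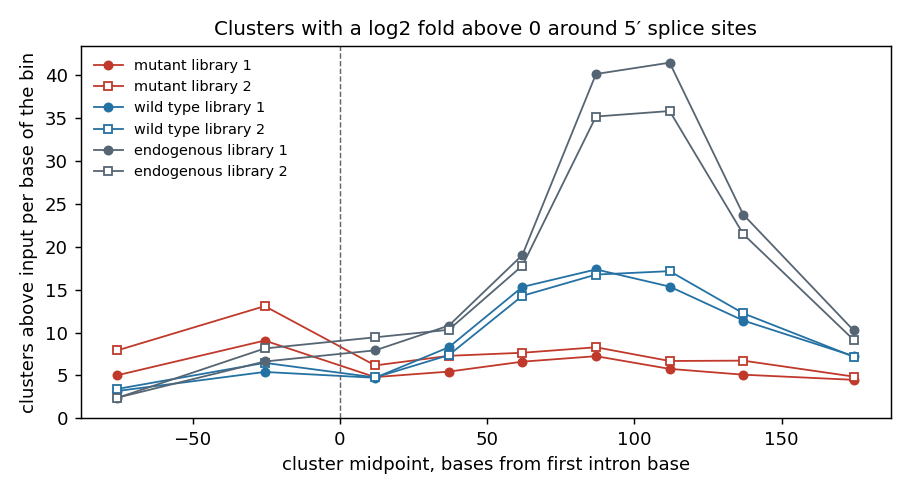
Number of clusters with a log2 fold above 0 per base of each distance bin (y axis) by distance of the midpoint from the first intron base (x axis, bases), for the 6 libraries. Mutant lines are highest at 50 to 1 bases before the junction and wild type lines at 75 to 124 bases behind it. The endogenous maximum near 100 bases is partly set by how junctions were found, and the wild type lines can be shaped by it too.

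Endogenous clusters on 5′ splice sites were also divided by what they touched. Clusters that spanned the whole splice site window were enriched in 24.8% (17.9 to 32.8, 141 clusters) and 16.9% (9.75 to 26.3, 89 clusters), with a median length of 142 and 141 bases. Those that reached on into the intron were enriched in 8.06% and 10.4%, and those that reached into the exon in 4.96% and 3.62%. Those wholly inside the window, with a median of 39 bases, were enriched in 2.06% and 1.71%. Clusters of any other make-up (189 and 126) were enriched in 8.99% and 11.9%. Clusters that span the window are long by definition, and the part of length in these shares was not tested. Other enriched clusters lay near enriched loci. A further enriched cluster lay within 500 bases downstream at 29.7% (24.6 to 35.2) and 26.5% (21.1 to 32.5) of enriched loci, and within 500 bases upstream at 10.0% and 10.2%. For listed loci that were not enriched it lay downstream at 2.54% and 2.35% and upstream at 1.22% and 0.815%.

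The second comparison set tagged wild type against endogenous QKI. Over all loci, 1.47% and 1.34% were enriched in wild type, against 4.46% and 3.64% for endogenous QKI (difference −2.64 percentage points, exact permutation p = 0.333). Over loci of all classes the shares were 0.881% and 0.922% in wild type, against 2.64% and 2.16% for endogenous QKI. The loci were defined by endogenous clusters, which favours endogenous in this count. Of the 196 loci enriched in both endogenous libraries, wild type listed 165 and 163, at a median log2 fold of 2.73 and 2.35, and was enriched at 59 and 44. Both wild type libraries were enriched at 36 of them (18.4%) and neither at 129 (65.8%), and 19 (9.69%) were listed in no wild type library. Over the 7974 loci of all classes enriched in both endogenous libraries these shares were 20.4%, 62.8% and 7.04%. In the other direction, 8 of the 53 loci enriched in both wild type libraries (15.1%) were enriched in no endogenous library, beside 22.2% over loci of all classes.

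The authors' reproducible lists were compared by overlap of at least 1 base. Of 276 endogenous reproducible peaks on 5′ splice sites, 58 overlapped a wild type reproducible peak (21.0%, 16.4 to 26.3), beside 24.0% of all endogenous reproducible peaks. Of 75 wild type reproducible peaks there, 57 overlapped an endogenous one (76.0%, 64.7 to 85.1), beside 68.0% of all wild type peaks. None of the 55 mutant reproducible peaks was on a 5′ splice site (36.4% of the 55 overlapped a wild type peak and 30.9% an endogenous one), and 0 of the 276 endogenous and 0 of the 75 wild type peaks overlapped one, beside 0.154% and 0.634% over all peaks. These shares were near those of all classes.

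Single regions were tested with limma over all regions, made by joining overlapping clusters of the 4 libraries of a comparison, with a cluster above input in each. A region can be wider than the locus of the same gene. For wild type against endogenous these were 29812 regions, 578 of them on 5′ splice sites. On 5′ splice sites 69 regions (11.9%) were lower in wild type and 0 higher at an adjusted p of at most 0.05, where 7.66% of all regions were lower and 0.537% higher (8.2% in either direction); at an unadjusted p under 0.05 there were 157 lower and 14 higher. The median difference was −0.58 on 5′ splice sites and −0.61 over all regions, and so differed little between the members and all regions. With the replicate number as a block COG5 was called higher (limma adjusted p = 0.0438), beside 340 of all 29812 regions. With regions held to a −log10 p of at least 3 in at least 1 library it was also called higher (limma adjusted p = 0.0485), beside 252 of 14452. With each library centred on its median, 19 regions on 5′ splice sites (3.29%) were lower and 1, again COG5, was higher, beside 1.28% lower over all regions. The number of lower regions was 36 without wild type library 1, 19 without wild type library 2, 45 without endogenous library 1 and 47 without endogenous library 2.

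The regions named here were among those with the largest differences. DOCK6, which encodes an exchange factor for Rac and Cdc42, had 1.41 and 1.25 in wild type, against 6.47 and 5.56 for endogenous QKI, a difference of −4.69 (SE 0.66, limma adjusted p = 0.0039). Its region reached beyond the splice site locus inside it. That locus had 5.84 and 3.87 for endogenous QKI and 1.41 in wild type library 1, with no cluster in wild type library 2. EPB41L2, a membrane skeleton gene, had 0.89 and 0.02 in wild type, against 4.77 and 5.42 for endogenous QKI, a difference of −4.64. ACOT9, a mitochondrial acyl-CoA thioesterase gene, differed by −4.19 and TBRG1 by −4.11. At each of these regions both wild type values lay far below both endogenous values.

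PRPF3 encodes a protein of the U4/U6 small nuclear ribonucleoprotein, which carries U6 into the tri-snRNP. Its region had 0.63 and 0.90 in wild type, against 5.53 and 3.62 for endogenous QKI, a difference of −3.81 (SE 0.72, limma adjusted p = 0.00976). In mutant library 2 the locus had 0.66. The PRPF3 locus ran from −27 to 72 and so lay across the junction (chromosome 1, 150316997 to 150317096, plus strand). These 5 named regions stayed at an adjusted p of at most 0.05 in each of the 8 other settings run, including the centred one.

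**Figure D5:**
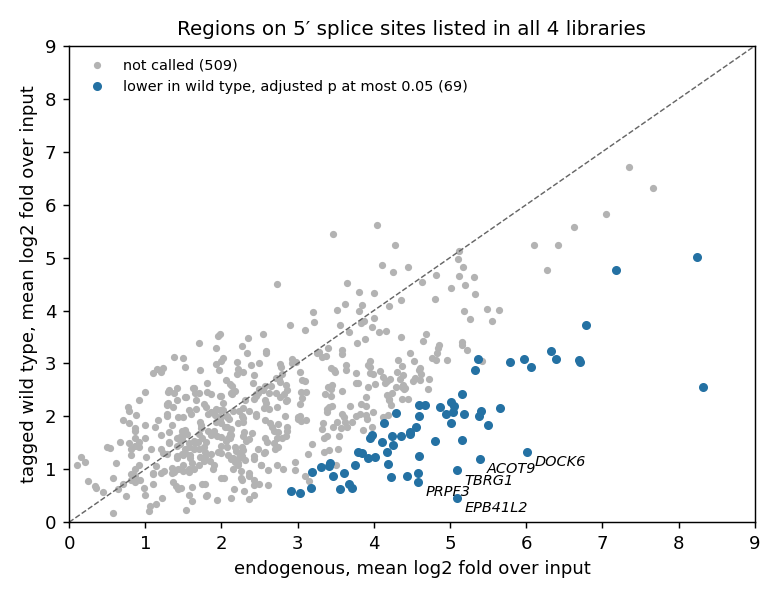
Mean log2 fold over input in tagged wild type (y axis) and in endogenous QKI (x axis) for the 578 regions on 5′ splice sites listed in all 4 libraries; blue points are the 69 regions lower in wild type by limma, grey points the rest, and the dashed line marks equal values. The 5 named regions have an endogenous mean of 4.58 or more and a wild type mean of 1.33 or less.

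For mutant against wild type only 5346 regions had a cluster in all 4 libraries, 152 of them on 5′ splice sites. By limma 0 of these were called in either direction, where 0.0187% of all regions were higher and 0.542% lower (0.561% in either direction); at an unadjusted p under 0.05, 15 were higher and 8 lower. The median difference was 0.46 on 5′ splice sites and 0.26 over all regions. A region had to be listed in the mutant to enter, which leaves out the loci where the mutant had no cluster. With missing values set to 0, 360 of 1328 regions on 5′ splice sites were lower (27.1%) and 69 higher, beside 22.1% lower and 5.52% higher over all 114781 regions; these were listed in both libraries of at least 1 group, so a region absent from the other group enters with a difference set by that choice. DMC1, the gene of a meiotic recombinase, passed as lower with each library centred and with a filter on −log10 p, and HSD17B4, a peroxisomal enzyme gene, without wild type library 1; both were chosen after their values were seen. The DMC1 region had 0.02 and 1.11 in the mutant libraries, against 3.11 and 3.30 in those of wild type, a difference of −2.64 (limma adjusted p = 0.106).

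Several genes held more than 1 locus enriched in both endogenous libraries. Of the 5 genes kept, DOCK6 held 3, and CLASP2, DST, DYNC1H1 and GPR98 (now ADGRV1) held 2 each. Ties at 2 were cut in alphabetical order, so other genes may hold 2 as well. DYNC1H1, the dynein heavy chain gene, had at the first locus 4.66 and 4.69 in wild type, against 4.81 and 4.81 for endogenous QKI, and at the second 1.63 and 4.30 in wild type, against 3.23 and 4.02 for endogenous QKI. Its groups were close at the first locus and overlapped at the second. DST, which encodes the cytoskeletal linker dystonin, had 4.06 and 3.14 in wild type, against 3.39 and 4.75 for endogenous QKI at one locus, and 1.41 in wild type library 1 against 3.92 and 3.65 in endogenous at the other. CLASP2, a microtubule plus end gene, had 2.22 and 1.44 in wild type, against 5.58 and 5.42 for endogenous QKI at its stronger locus. No mutant library listed a locus of these genes apart from DOCK6, at 1.61 in mutant library 1.

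Genes of the splicing machinery and other lists were read against all named genes with a 5′ splice site locus, of which 4.15% had one enriched in both endogenous libraries. Of 44 listed genes for 5′ splice site and tri-snRNP proteins, 16 had a locus and 1, PRPF3, was enriched in both. LSM5 and LSM6, U6-binding ring genes, had endogenous log2 folds of 3.39 and 2.37, and of 1.72 in library 1 alone, none enriched. LUC7L, which encodes a U1-associated protein, had 0.73 and 2.81, and MFAP1 had 1.43 and 1.89. Of 65 splicing regulators, 19 had a locus and 2 were enriched in both, RBM39, with 1.94 and 2.10 in wild type, against 3.60 and 3.77 for endogenous QKI, and RBM5, with 1.78 and 1.00 in wild type, against 3.89 and 3.18 for endogenous QKI. HNRNPH1 and MBNL3 were enriched in endogenous library 1 alone.

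Of 18 known QKI targets, 8 had a locus and 2 were enriched in both. Of these, BIN1, a membrane curvature gene, had 5.04 and 4.27 in endogenous and no tagged cluster, on a locus that ran from −41 to 60. KIF1B, a kinesin gene, had 4.47 and 1.56 in endogenous, NUMB had 1.26 in library 1 and MACF1 1.15 in library 2. Of 22 cardiac sarcomere and calcium handling genes, 10 had a locus and none was enriched in both. LMO7 had 3.34 and 2.89, and RYR2, the cardiac calcium release channel gene, had 2.34 in library 1 alone. Of 18 noncoding host genes of small nucleolar RNAs and microRNAs, 2 had a locus, DLEU2 and ZFAS1, and neither was enriched, and of 10 neuronal markers 1 had a locus, not enriched. The median endogenous log2 fold of a list's loci was 0.78 for the splice site proteins, 0.91 for splicing regulators, 0.84 for QKI targets, 1.35 for cardiac genes, 1.01 for noncoding hosts and 1.06 for the neuronal marker, beside 0.58 over all named loci. No gene of any list was enriched in a mutant library, where 0.404% of all named genes with a locus were.

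On noncoding transcripts there were 520 loci. Enriched loci made up 0% and 0.385% for the mutant and 1.15% and 1.15% for wild type, against 3.27% and 2.50% for endogenous QKI. The mutant was listed at 17.3% and 23.8% of them and wild type at 22.3% and 25.6%, so the listed shares of these groups overlapped (exact permutation p = 0.667). FAM13A-AS1, an antisense transcript, had 1.93 in mutant library 1, 2.63 and 3.53 in wild type, against 5.36 and 5.37 for endogenous QKI. lnc-USP6-2 had 5.80 and 3.83 in wild type, against 4.94 and 5.40 for endogenous QKI, and lnc-LGALS3BP-4 had 4.25 and 5.87 in endogenous and no tagged cluster. lnc-TTC3-4 was the only one of the 6 leading noncoding loci listed in both mutant libraries, at 2.85 and 0.52, beside 2.38 and 2.07 in wild type, against 4.08 and 5.11 for endogenous QKI. Its groups of tagged libraries overlapped. Where such a transcript overlaps another gene on the same strand, the transcript of origin is uncertain.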

How the data were processed

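The submitters' processing notes name hg19 and the tools SAMtools, STAR, cutadapt and UMI-tools; their versions and the caller of peaks were not given in the sources used here. The deposited values are, per the file headers and the values themselves, the authors' log2 fold of immunoprecipitation over size-matched input, the authors' −log10 p (capped at 400), and in the tagged files a deposited browser score that was not used. The 6 input libraries entered only through these folds. Coordinates are 1-based hg19.

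Clusters were overlapped with bedtools 2.31.1 (same strand, at least 1 base). Endogenous clusters on 5′ splice sites were joined into loci, and each library gave the cluster with the highest −log10 p. Region class ties (62 and 24 clusters) were left out. Regions listed in all 4 libraries were tested with limma 3.58.1 (R 4.3.3; lmFit, eBayes, Benjamini-Hochberg over all regions), a step tested on simulated data. Shares were compared between libraries by two-sided exact permutation (scipy 1.17.1). Intervals are exact Clopper-Pearson at 95% and, since depth is unknown, cover counting error of clusters only.

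Genes were named by rule: the 12 leading endogenous loci, 8 wild type, 8 mutant and 6 noncoding loci by mean fold, up to 6 limma calls per direction, the 5 genes with most loci, and up to 5 per list. The members, lists and rules were chosen with earlier results of these data known. Symbols are the files' own. 1 gene that the rule names is not reported here. Splice site sequences were not analysed here.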

Additional observations from a re-analysis of the deposited data

How the results depend on the processing

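Depth is unknown and folds rest on few reads at weak clusters, so low folds are coarse; with 2 libraries a group no permutation p could pass 0.05. The enriched share ratio in endogenous stayed between 1.22 and 1.31 under the other thresholds and cluster sets, and was 1.08 and 1.33 in single libraries. Mutant against wild type kept its direction in every setting run for enriched and for listed loci, and wild type against endogenous did for enriched loci. The difference in median log2 fold over all loci became 0 with missing values set to 0, and ranged from −0.55 to −0.03 with single libraries left out. The share of endogenous reproducible peaks found by wild type was 19.9% at a 50% overlap and 16.6% for peaks with a log2 fold of 4 or more in both lists. In limma, mutant against wild type gave 0 calls on 5′ splice sites, between 0 and 1 with a library left out, 1 with centring, 1 with the −log10 p filter and 429 with missing values set to 0. Wild type against endogenous gave 69 calls, between 19 and 47 with a library left out, where the lone library is assumed to vary like the others, and 20 with centring. With the replicate number as a block there were 0 and 91 calls, and the mutant less wild type differences were −1.23 points in enriched loci, −6.87 points in listed loci (exact paired p = 0.5 each, the smallest possible) and −0.29 in median log2 fold (p = 1), with −2.64 points in enriched loci for wild type less endogenous (p = 0.5); the numbers are not stated to pair the libraries, and same-numbered deviations correlated at −0.04 and 0.01. Of settings chosen after seeing the data, the wild type gain of intron over junction, 7.53 percentage points, was 9.74 with the fold threshold at 2 and 2.82 with it at 4, 4.53 with the −log10 p threshold at 5, 1.85 for clusters of 50 to 79 bases and 16.4 for 80 to 119 bases, 7.04 around junctions seen from the exon side and 8.31 around those seen from the intron side alone, and between 7.25 and 7.82 with a library left out.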
